A study of Danio rerio with 8 samples.

Results

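The genes described here are 8 genes grouped as cerebellar Purkinje cell genes: *pvalb7*, *ca8*, *aldoca*, *itpr1b*, *rorab*, *foxp4*, *lhx1a* and *cbln12*. The 8 genes were picked by gene symbol, and all 8 were found among the 22871 genes counted and had enough counts to be tested. The last, *cbln12*, encodes a cerebellin, which need not be made by the Purkinje cell itself. RNA was sequenced from 8 pools of 3 whole zebrafish brains each. 4 pools came from *psap* KO fish, homozygous for a CRISPR-Cas9 insertion allele of *psap* that brings an early stop codon, and 4 came from their WT siblings. All fish were of the TuAB strain, untreated and 4 months old (mpf, months post-fertilization), and the KO line descends from 1 mutant fish. *psap* encodes prosaposin, the precursor of the saposins that help lysosomal enzymes to break down sphingolipids.

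Purkinje cells are the large GABAergic neurons of the cerebellar cortex and send out the signals of the cortex. Each receives climbing fibre input from the inferior olive and parallel fibre input from the granule cells. Glutamate from the parallel fibres opens AMPA receptors and also activates the metabotropic receptor mGluR1, which leads through IP3 to calcium release from internal stores. These neurons are rich in calcium-binding proteins and IP3 receptors, and in several inherited storage diseases of mammals they are among the neurons that are lost early. In fish, the same cells express Parvalbumin 7 and the aldolase C antigen known as Zebrin II.

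In the *psap* KO brains, 7 of the 8 genes were lower than in WT brains, and *aldoca* did not pass the test (adjusted p of 0.05, edgeR's quasi-likelihood test over all 21140 genes with enough counts). None of the 8 was higher, at an adjusted or an unadjusted p under 0.05 in edgeR, or in DESeq2 or limma-voom. *cbln12*, *pvalb7* and *itpr1b* fell by 43.9%, 39.0% and 34.6% of the WT mean, and *ca8*, *foxp4*, *lhx1a* and *rorab* by 22.2%, 17.6%, 15.8% and 14.3%. Over all genes tested, 18.5% were lower and 22.3% were higher in *psap* KO brains, with a median log2 fold change (log2FC) of 0.02. The median of the 8 genes was -0.33. For 5 of the 8 genes (*pvalb7*, *itpr1b*, *rorab*, *lhx1a* and *cbln12*), every *psap* KO library lay below every WT library, which holds for 18.3% of all genes tested. The summed level of the 8 genes was 834 to 987 CPM (counts per unit of library size, with the TMM factors of edgeR) in *psap* KO libraries and 1260 to 1402 CPM in WT libraries. Whole-brain RNA cannot tell apart fewer Purkinje cells, less RNA per cell and shifts in the RNA of other cells. The plot of each gene's level by library shows these values.

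**Figure D1:**
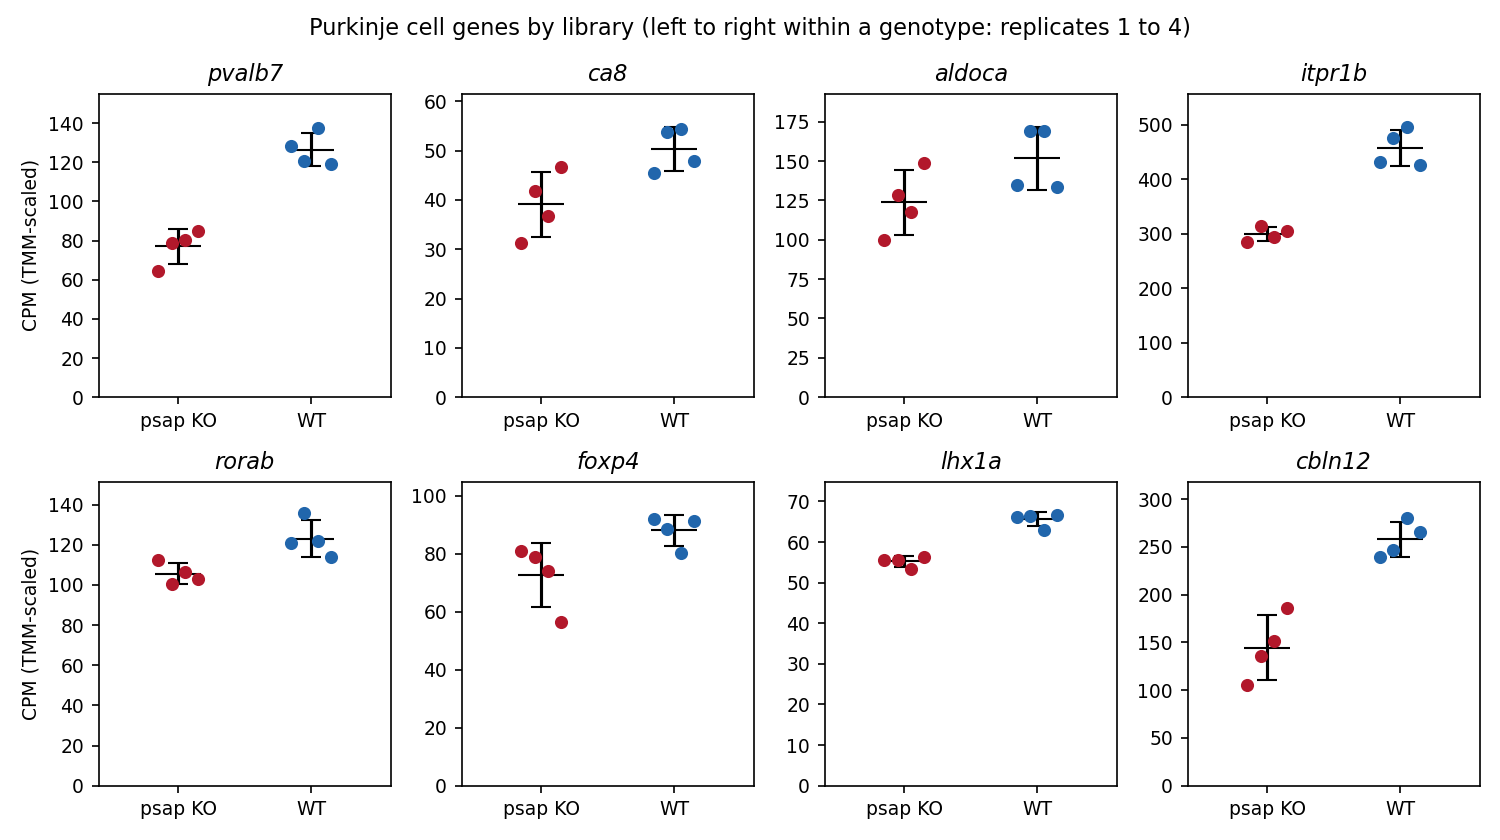
Level of each of the 8 genes in CPM (y axis, from 0) in the 4 *psap* KO libraries (red, left) and the 4 WT libraries (blue, right), with the mean and SD in black. The libraries of the genotypes are separate for *pvalb7*, *itpr1b*, *rorab*, *lhx1a* and *cbln12*, and overlap for *ca8*, *aldoca* and *foxp4*.

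The libraries held 17562422 to 25127578 counts in *psap* KO and 15332163 to 23480758 counts in WT brains, and no library had fewer than 562 counts of any of the 8 genes. All 8, the defining Purkinje cell markers *pvalb7*, *ca8* and *aldoca* among them, were thus detected throughout, although whole-brain counts do not show which cells carried them. The mitochondrial share of the counts was 5.64 to 6.61%. The targeted gene *psap* was at 412.5 ± 29.1 CPM in *psap* KO and 378 ± 30.5 CPM in WT brains (SD, n = 4 each; log2FC 0.13, adjusted p = 0.206 by edgeR). This difference did not pass the test, and counts per gene do not show the allele. The replicates are separate pools, and whether a pool holds fish of 1 clutch is not given in the sources used here. Skeletal muscle genes summed to 339 to 545 CPM in *psap* KO libraries and 477 to 1415 CPM in WT libraries, with WT replicate 1 the highest, and without that library 6 of the 8 Purkinje cell genes were lower.

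*pvalb7* encodes Parvalbumin 7, a calcium-buffering protein used in zebrafish to label Purkinje cells. It is annotated on chromosome 22 at 29165330 to 29242347 (minus strand, ENSDARG00000034705) in the deposited file. The 4 *psap* KO libraries had 64.3, 78.7, 80.3 and 85.1 CPM, against 128, 121, 137 and 119 CPM in the 4 WT libraries. The highest *psap* KO library was thus well below the lowest WT library. The means were 77.1 ± 8.98 CPM in *psap* KO and 126 ± 8.33 CPM in WT brains (SD, n = 4 each), a log2FC of -0.71 (standard error, SE, 0.0877, adjusted p = 4.6e-05 by edgeR). An exact two-sided permutation test of the 4 against 4 libraries gave p = 0.0286, the smallest value this design allows. *pvalb7* is the only gene of the 8 whose span overlaps other annotated genes, *ncf4* and *baiap2l2b* on the opposite strand. *ncf4*, a subunit of the phagocyte oxidase, was higher in *psap* KO brains (8.83 ± 0.507 CPM in *psap* KO against 1.97 ± 0.191 CPM in WT brains, SD, n = 4 each), at an average of 116 counts per library. The library kit keeps the strand, but the strand setting of the counting is not given in the sources used here.

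*itpr1b* encodes a type 1 IP3 receptor, the calcium release channel of the endoplasmic reticulum that is densest in Purkinje cells in mammals. It is annotated on chromosome 11 at 35777329 to 36020005 (minus strand, ENSDARG00000074149). Its level was 284, 314, 294 and 304 CPM in *psap* KO libraries, against 432, 475, 496 and 427 CPM in WT libraries. The libraries of the genotypes did not overlap, and the *psap* KO libraries lay close together. The mean was 299 ± 12.8 CPM in *psap* KO and 458 ± 33.5 CPM in WT brains (SD, n = 4 each), with a log2FC of -0.61 (SE 0.0682, adjusted p = 2.1e-05 by edgeR; exact permutation p = 0.0286).

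*ca8* encodes carbonic anhydrase 8, a protein without enzyme activity that binds the type 1 IP3 receptor in mammals. It is annotated on chromosome 2 at 21855036 to 21878527 (plus strand, ENSDARG00000039098). Its level was 31.3, 41.8, 36.7 and 46.7 CPM in *psap* KO libraries, against 45.5, 53.8, 54.4 and 47.8 CPM in WT libraries. The highest *psap* KO library, replicate 4, overlapped the lowest WT library, replicate 1. The mean was 39.1 ± 6.62 CPM in *psap* KO and 50.4 ± 4.42 CPM in WT brains (SD, n = 4 each). The log2FC was -0.36 (SE 0.114, adjusted p = 0.0239 by edgeR), and the exact permutation test gave p = 0.0571. The call rested on single libraries: the adjusted p from edgeR was 0.052 without *psap* KO replicate 1 (log2FC -0.27), 0.0684 without *psap* KO replicate 3 (-0.33), 0.0653 without WT replicate 2 (-0.33) and 0.0703 without WT replicate 3 (-0.32).

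*aldoca* encodes an aldolase C, the glycolytic enzyme recognised by the Zebrin II antibody. It is annotated on chromosome 15 at 16079586 to 16098531 (minus strand, ENSDARG00000057661). *psap* KO libraries had 99.7, 129, 118 and 149 CPM, against 135, 169, 169 and 134 CPM in WT libraries. The genotypes overlapped, since *psap* KO replicate 4 lay above WT replicates 1 and 4. The mean was 124 ± 20.5 CPM in *psap* KO and 152 ± 20.0 CPM in WT brains (SD, n = 4 each), and the log2FC of -0.29 had a 95% interval of -0.57 to -0.02 before adjustment (adjusted p = 0.0835 by edgeR; exact permutation p = 0.114). It passed the adjusted threshold without *psap* KO replicate 4 (log2FC -0.39, adjusted p = 0.0189 by edgeR) and in DESeq2 with all libraries (-0.32, adjusted p = 0.034). Over all alternatives its adjusted p ranged from 0.0189 to 0.196.

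The 3 transcription factors of the 8 genes had log2FC values of -0.28 to -0.22. *rorab* encodes a retinoic acid-related orphan receptor alpha, needed for Purkinje cell maturation and survival in mice, and is annotated on chromosome 7 at 29538628 to 29625509 (minus strand, ENSDARG00000001910). It was at 113, 100.4, 106 and 103 CPM in *psap* KO libraries, against 121, 136, 122 and 114 CPM in WT libraries. The genotypes did not overlap, although the highest *psap* KO library and the lowest WT library nearly met. The log2FC was -0.22 (SE 0.0694, adjusted p = 0.0221 by edgeR; exact permutation p = 0.0286), and the adjusted p rose to 0.066 without *psap* KO replicate 2 (log2FC -0.20) and to 0.0726 without WT replicate 2 (-0.17).

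*lhx1a* encodes a LIM homeodomain factor whose mouse counterpart acts with Lhx5 in Purkinje cell differentiation. It is annotated on chromosome 15 at 27703409 to 27710575 (minus strand, ENSDARG00000014018). Its replicates were the tightest of the 8 genes, with 55.6, 55.5, 53.4 and 56.4 CPM in *psap* KO libraries, against 66.3, 66.5, 63.1 and 66.6 CPM in WT libraries. The genotypes were separate even though the change was modest (log2FC -0.25, SE 0.0592, adjusted p = 0.00506 by edgeR; exact permutation p = 0.0286).

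*foxp4* encodes a forkhead factor found in mouse Purkinje cells, and is annotated on chromosome 11 at 21910343 to 22094392 (plus strand, ENSDARG00000076120). Its level was 80.7, 78.8, 74.1 and 56.5 CPM in *psap* KO libraries, against 92.1, 88.4, 80.4 and 91.2 CPM in WT libraries. The genotypes overlapped by 1 library on each side, and *psap* KO replicate 4 was far below the rest. The log2FC was -0.28 (SE 0.103, adjusted p = 0.0466 by edgeR; exact permutation p = 0.0571). This call was the least firm of the 7: without *psap* KO replicate 4 the log2FC was -0.17 (adjusted p = 0.0553 by edgeR), and the adjusted p was also above 0.05 without *psap* KO replicate 3 (-0.29, 0.0792), WT replicate 1 (-0.26, 0.106), WT replicate 2 (-0.28, 0.087) or WT replicate 4 (-0.27, 0.0929), with upper-quartile scaling (-0.25, 0.0743) and with a mean count filter of 50 (-0.26, 0.0686).

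*cbln12* encodes a cerebellin, of the family of secreted C1q-like proteins. In mice, cerebellin 1 is released by the parallel fibres of granule cells and binds presynaptic neurexin at their contacts with Purkinje cells, so a cerebellin need not be made by the Purkinje cell itself. *cbln12* is annotated on chromosome 2 at 38121415 to 38125657 (minus strand, ENSDARG00000068232). Its level was 105, 135, 152 and 186 CPM in *psap* KO libraries, against 240, 246, 280 and 266 CPM in WT libraries. The 4 *psap* KO libraries spread widely yet all stayed below the WT libraries. The mean was 145 ± 33.7 CPM in *psap* KO and 258 ± 18.4 CPM in WT brains (SD, n = 4 each), with a log2FC of -0.83 (SE 0.146, adjusted p = 0.00118 by edgeR; exact permutation p = 0.0286).

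The 8 genes did not vary alike between pools of 1 genotype. With each genotype's mean subtracted from the log2 CPM, *psap* KO replicate 1 was the lowest and *psap* KO replicate 4 the highest *psap* KO library for *pvalb7*, *ca8*, *aldoca* and *cbln12*, and for *cbln12* they lay at -0.43 and 0.39. *foxp4* ran the other way, with *psap* KO replicate 4 at -0.35. *lhx1a* and *rorab* followed neither pattern. Over all genes tested too, *psap* KO replicates 1 and 4 were the *psap* KO libraries furthest apart on principal component 2 of log2 CPM, at 25.9 and -31.6. This axis held 8.475% of the variance, so the order of the libraries is not read as particular to these genes. As a description over the 8 libraries, *aldoca* and *ca8* were the most alike pair (Pearson r = 0.967): of the 17575 other genes above an average log2 CPM of 1, *ca8* was the gene most like *aldoca*, and *aldoca* ranked 5 for *ca8*. *pvalb7* correlated with *cbln12* at 0.861, *ca8* at 0.768 and *aldoca* at 0.742. *foxp4* correlated with *aldoca* at -0.767, with *ca8* at -0.76 and with *cbln12* at -0.86. These values share the libraries and their depth, so they say nothing of cells of origin.

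**Figure D2:**
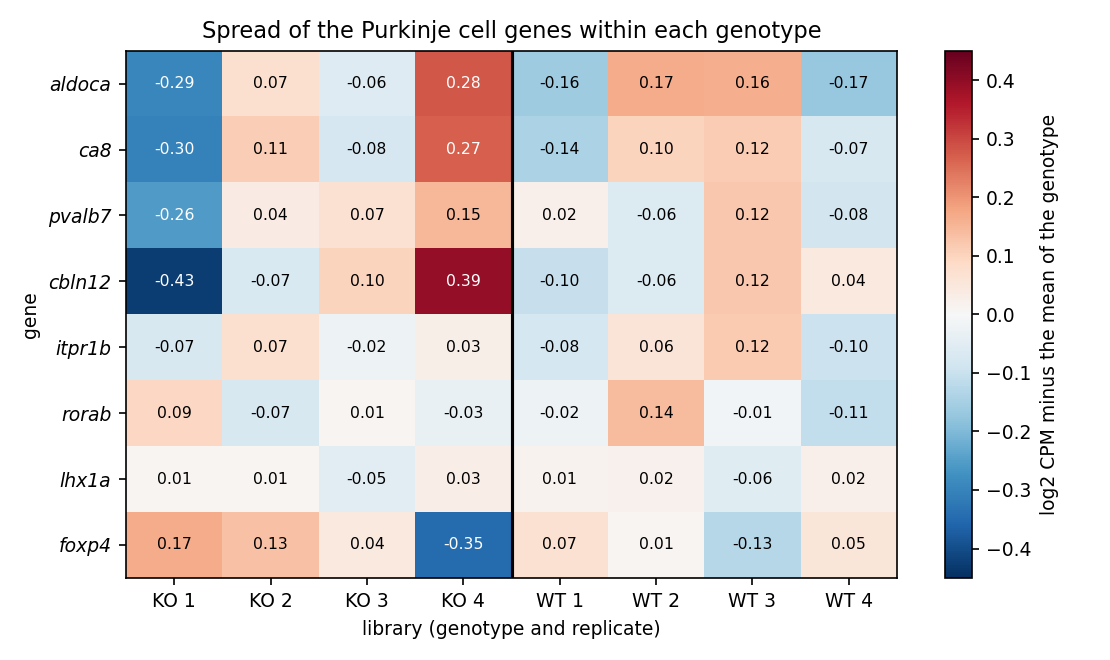
Deviation of each gene (rows) from its genotype's mean log2 CPM in each library (columns, *psap* KO left of WT), with blue for lower and red for higher. *aldoca* and *ca8* show the same order of deviations in the *psap* KO libraries, and *foxp4* is lowest in *psap* KO replicate 4 (-0.35), where *cbln12* is highest (0.39).

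The genes most like *pvalb7* by this measure were *aldh9a1b*, *cdc42* and *tanc1a* (r = 0.974, 0.972 and 0.97). For *ca8* they were *nr2c1*, *FP325123.1* and *rab3da* (0.985, 0.983 and 0.972), and for *aldoca*, after *ca8*, they were *si:ch211-113a14.12* and *nol8* (0.967 and 0.964). Of these genes, *tanc1a*, a postsynaptic scaffold gene, was lower in *psap* KO brains (log2FC -0.45, adjusted p = 0.000171 by edgeR) and *aldh9a1b* was called higher (0.36, adjusted p = 0.0457), a call that only 4 of 15 alternatives kept. The others did not pass the test, with log2FC values of -0.09 to 0.16.

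Ratios of the genes within a library were also taken. They were chosen after the values were seen and carry no test. *pvalb7* over *aldoca* was 0.572 to 0.683 in *psap* KO libraries and 0.715 to 0.95 in WT libraries, and *pvalb7* over *ca8* was 1.82 to 2.19 in *psap* KO libraries and 2.25 to 2.82 in WT libraries, so both were lower in every *psap* KO library. *ca8* over *aldoca* was 0.312 to 0.325 in *psap* KO and 0.318 to 0.357 in WT libraries, which overlap. Set against the summed CPM of 29 pan-neuronal genes, *pvalb7* was 9.18 to 11.9 per 1000 in *psap* KO and 12.3 to 13.7 in WT libraries, and *itpr1b* was 39.7 to 42.8 per 1000 in *psap* KO and 44.1 to 49.6 in WT libraries. Relative to these neuronal genes, *pvalb7* and *itpr1b* were thus lower in every *psap* KO library than in any WT library. *lhx1a*, by contrast, was 7.21 to 7.94 per 1000 in *psap* KO and 6.28 to 6.94 in WT libraries, higher in every *psap* KO library. The pan-neuronal sum itself was lower in *psap* KO (7002 to 7406 CPM) than in WT libraries (9563 to 10040 CPM). In CPM, *lhx1a* was lower in *psap* KO brains (log2FC -0.25). *ca8*, *aldoca*, *rorab*, *foxp4* and *cbln12* overlapped on this scale.

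Relatives of these genes were counted in the same fit. Of 37 tested members of the same gene families, 7 rose, 10 fell and 20 missed the threshold, with a median log2FC of -0.01. The 18.9% higher and 27% lower are near the 22.3% and 18.5% of all genes tested. The IP3 receptor genes had calls in both directions. *itpr1a*, the other type 1 receptor gene, was at 26.5 ± 2.78 CPM in *psap* KO and 18.9 ± 4.23 CPM in WT brains (SD, n = 4 each; log2FC 0.49, adjusted p = 0.0175 by edgeR). Its adjusted p was 0.0545 without *psap* KO replicate 3 (log2FC 0.415) and 0.0551 without WT replicate 3 (0.405). *itpr1b* over *itpr1a* was 9.64 to 12.5 in *psap* KO libraries and 18.9 to 31.9 in WT libraries. *itpr2*, the receptor typical of glia and many non-neuronal cells, was higher (51.2 ± 2.26 CPM in *psap* KO against 33.0 ± 1.33 CPM in WT brains, SD, n = 4 each; log2FC 0.63, adjusted p = 1.6e-05 by edgeR), and *itpr3* did not pass the test (-0.06).

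*aldocb*, the other aldolase C gene, was at 1459 ± 121 CPM in *psap* KO and 1470 ± 103 CPM in WT brains (SD, n = 4 each), with a log2FC of -0.01 whose 95% interval ran from -0.18 to 0.16. *aldoca* over *aldocb* was 0.0754 to 0.0923 in *psap* KO and 0.089 to 0.122 in WT libraries, an overlap. *aldoaa* (0.09) and *aldoab* (0.06), which encode the muscle-type enzyme, did not pass the test.

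The second RORα gene, *roraa*, was also lower, at 136 ± 16.7 CPM in *psap* KO and 183 ± 9.96 CPM in WT brains (SD, n = 4 each; log2FC -0.43, adjusted p = 0.00173 by edgeR). *rorab* over *roraa* was 0.724 to 0.901 in *psap* KO and 0.648 to 0.688 in WT libraries. *rorb* was lower (-0.47), and *rorc* (0.04), *rorca* (0.02) and *rorcb* (-0.31) did not pass the test. In the Foxp family, *foxp1a* was higher (log2FC 0.40), as was *foxp3a* (1.201), whose mammalian counterpart directs regulatory T cells, whereas *foxp2* (-0.28) and *foxp1b* (0.08) did not pass the test. *foxp2* passed in DESeq2 (-0.30, adjusted p = 0.0481), with the replicate number as a block (-0.29, adjusted p = 0.0257 by edgeR) and without *psap* KO replicate 1 (-0.37, adjusted p = 0.0153 by edgeR). Neither *lhx1b* (-0.18) nor *lhx5* (-0.17) passed.

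*pvalb6*, a second parvalbumin of the fish brain, was lower (31.9 ± 3.66 CPM in *psap* KO against 42.9 ± 4.11 CPM in WT brains, SD, n = 4 each; log2FC -0.43, adjusted p = 0.00385 by edgeR). *pvalb7* over *pvalb6* was 2.25 to 2.76 in *psap* KO and 2.81 to 3.21 in WT libraries. Among the cerebellins, *cbln2a* (log2FC -0.75), *cbln2b* (-0.36) and *cbln1* (-0.29) were lower and *cbln4* (0.01) did not pass the test, and *cbln12* over *cbln1* was 2.13 to 3.24 in *psap* KO and 3.88 to 4.13 in WT libraries. Among the carbonic anhydrases, *ca5a* of the mitochondria (0.34) and *ca9* (1.11) were higher, and *ca10a* (-0.26), *ca10b* (-0.37), *ca2* (-0.48) and *ca16b* (-0.16) were lower. *ca9* was at 1.83 ± 0.404 CPM in *psap* KO and 0.852 ± 0.503 CPM in WT brains (SD, n = 4 each), and its libraries overlapped between the genotypes. How reads that fit more than 1 family member were counted is not given in the sources used here, so splits between near-identical relatives are uncertain.

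**Figure D3:**
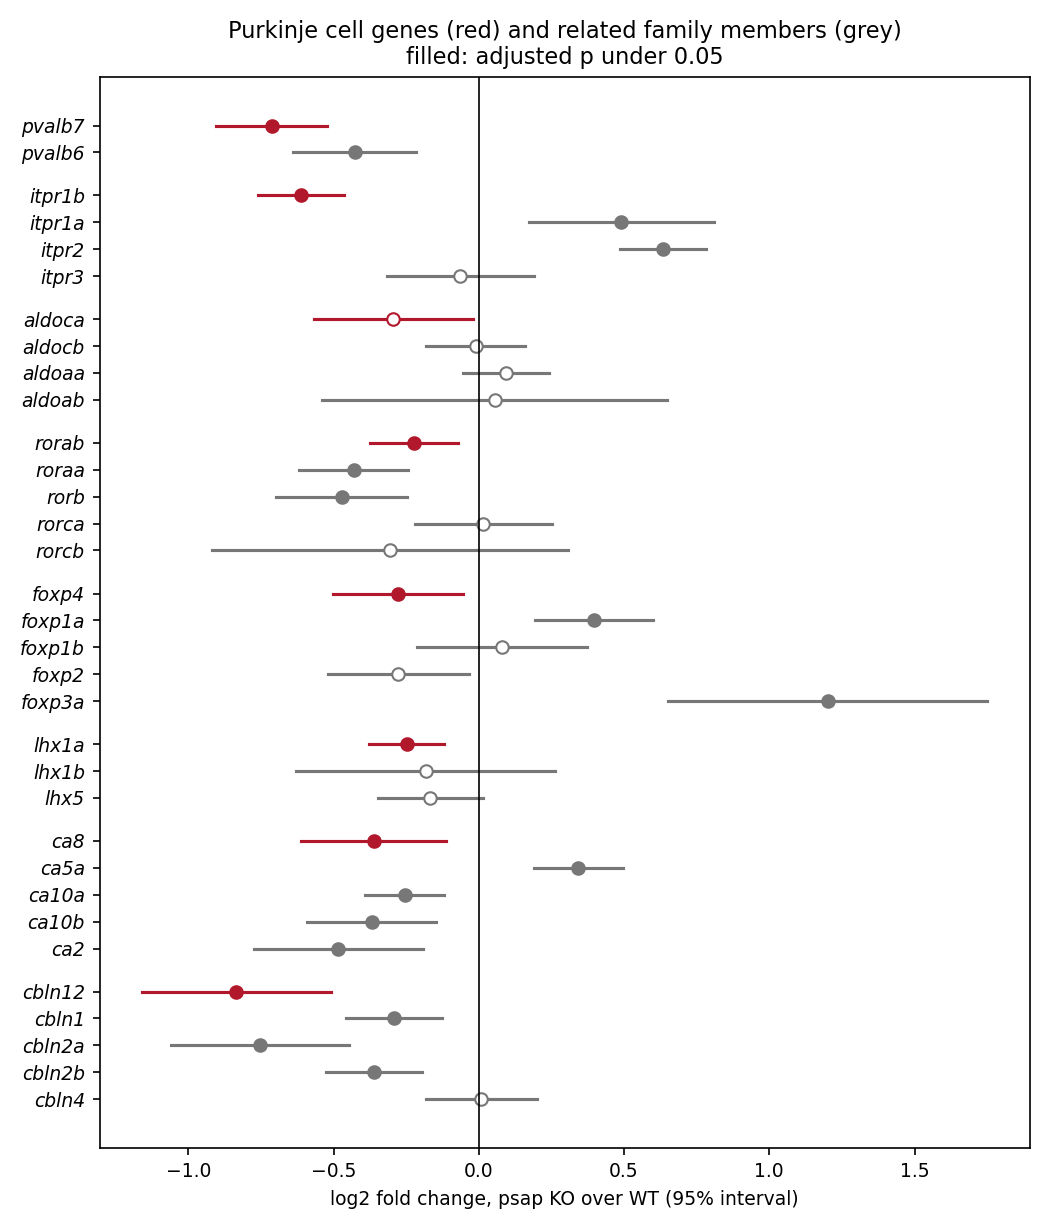
Change (log2FC) in *psap* KO relative to WT (x axis, with its 95% interval) for the 8 genes in red and selected relatives in grey, grouped by family. Filled points passed an adjusted p of 0.05. *itpr1b* (-0.61) and *itpr1a* (0.49) lie on opposite sides of 0, and *aldoca* (-0.29) and *aldocb* (-0.01) are both unfilled.

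A wider list of 68 other Purkinje cell genes (70 gene entries, since *atp2b2* and *ebf3a* each stand under 2 identifiers) was measured in the same fit. Of the 70, 47 fell, 5 rose and 18 missed the threshold, with a median log2FC of -0.41. The 67.1% lower and 7.14% higher stand against 18.5% and 22.3% of all genes tested. Their summed level was 6693 to 7580 CPM in *psap* KO libraries and 10340 to 11050 CPM in WT libraries. Many of these genes also serve other neurons, and some are not particular to Purkinje cells. Among the latter are *slc17a6a* (-0.44), which loads glutamate into vesicles, and *foxp3a* (1.201), so the counts are not of Purkinje cell genes alone. Of the 70 entries, 63 are described by role, and the roles were set after the values were seen.

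Of 9 genes grouped under mGluR1 and IP3 signalling, 5 were lower and 3 were higher, with a median of -0.32. Among all genes tested, 18.5% were lower and 22.3% were higher. The group also holds the cGMP-dependent kinase genes *prkg1b* (-0.32, lower) and *prkg1a* (-0.09, did not pass), which do not raise IP3. The receptor genes *grm1b* (46.3 ± 4.22 CPM in *psap* KO against 87.8 ± 11.3 CPM in WT brains, SD, n = 4 each; log2FC -0.92, adjusted p = 1.3e-05 by edgeR) and *grm1a* (-0.52) were lower. So were the scaffold *homer3a* (-0.69) and the G protein regulator *rgs8* (-0.36). The 3 higher genes were the phospholipase *plcb3* (0.69), *homer3b* (0.29) and *itpr1a* (0.49), so 2 of the pairs of duplicated genes, *homer3* and *itpr1*, had 1 copy lower and the other higher.

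Of 10 genes for calcium binding and clearance, 9 were lower (median -0.45), among them the plasma membrane pump *atp2b2* (412 ± 19.8 CPM in *psap* KO against 717 ± 45.3 CPM in WT brains for ENSDARG00000063433, SD, n = 4 each; log2FC -0.80, adjusted p = 2.2e-06 by edgeR) and *pcp4a*, a calmodulin-binding protein (-0.66). *calb1*, which encodes calbindin, did not pass (-0.19). Of 11 ion channel genes, 10 were lower (median -0.60). For both roles, these counts stand against 18.5% lower and 22.3% higher among all genes tested. The fast potassium channel *kcnc3a* was at 78.6 ± 4.49 CPM in *psap* KO and 171 ± 6.98 CPM in WT brains (SD, n = 4 each; log2FC -1.12, adjusted p = 1.1e-07 by edgeR). The sodium channel subunit *scn4ba* (-0.84) and the P/Q-type calcium channel *cacna1aa* (-0.72) were also lower. The duplicate of *cacna1aa*, *cacna1ab*, did not pass (-0.53, adjusted p = 0.0705 by edgeR).

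Of 5 transmitter genes, 4 were lower (median -0.67), 1 of them *slc17a6a* (-0.44), which loads glutamate and not GABA. *gad2*, which makes GABA, was at 521 ± 28.4 CPM in *psap* KO and 979 ± 27.6 CPM in WT brains (SD, n = 4 each; log2FC -0.91, adjusted p = 4.3e-07 by edgeR), and *slc32a1*, which loads it into vesicles, had a log2FC of -0.67. The glutamate transporter *slc1a6* did not pass (0.01, at 40.0 ± 5.85 CPM in *psap* KO against 39.7 ± 2.99 CPM in WT brains, SD, n = 4 each). The 4 genes of the Reelin pathway, which guides Purkinje cell placement, were all lower (median -0.30). For the transmitter and Reelin genes too, the shares among all genes tested were 18.5% lower and 22.3% higher.

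The transcription factors had the median closest to 0. Of 20 such entries, 5 were lower, 2 (*foxp1a* and *foxp3a*) were higher and 13 did not pass, with a median of -0.20. These few calls are not read as particular to the factors, since 18.5% of all genes tested were lower and 22.3% were higher. The lower entries were *roraa* (-0.43), *bcl11ba* (-0.40), 1 of the entries of *ebf3a* (-0.39), *tfap2a* (-0.33) and *en2a* (-0.31). *ptf1a*, the factor that specifies GABAergic cells of the embryonic cerebellum, did not pass (0.19) and was under 1 CPM in every library. Of the 4 remaining genes, *gpr63* (-0.52), *auts2b* (-0.45) and *nell2a* (-0.36) were lower and *auts2a* (-0.35) did not pass.

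**Figure D4:**
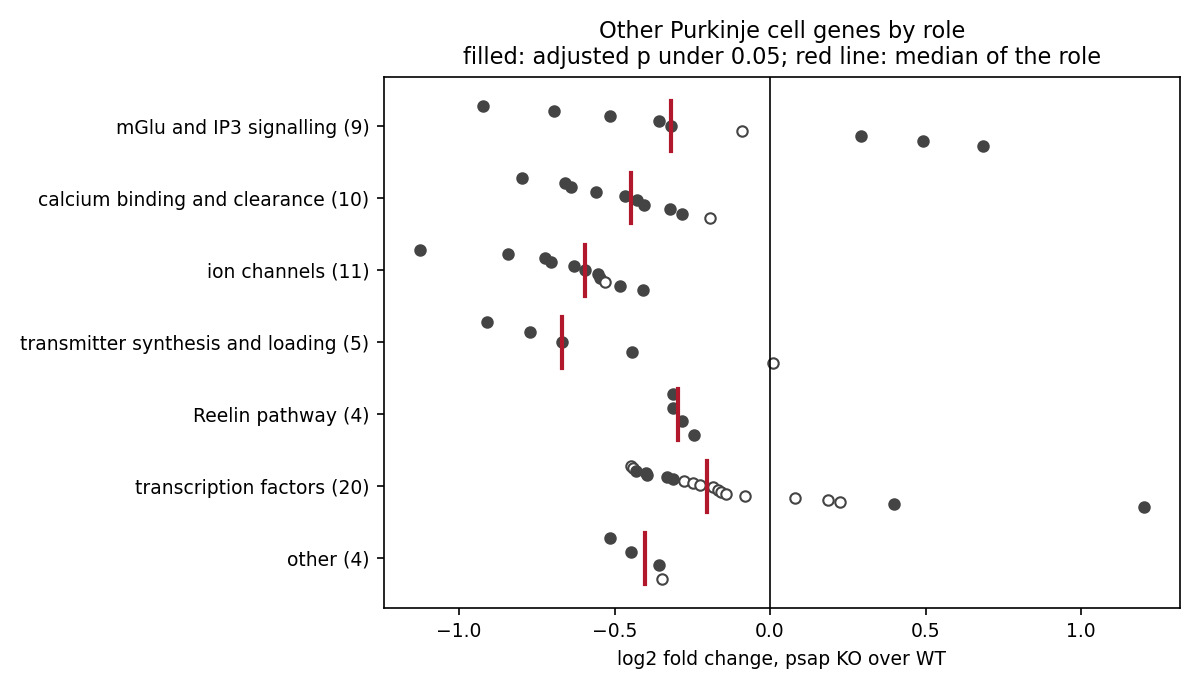
Change (log2FC) in *psap* KO relative to WT (x axis) for 63 of the 70 other Purkinje cell gene entries, grouped by role (rows, with the number of entries), with the median of each role as a red line and filled points for an adjusted p under 0.05. The medians run from -0.67 for the transmitter genes to -0.20 for the transcription factors.

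Genes of the partners of Purkinje cells and of other neurons were also lower. Of 28 genes of the parallel fibre synapse, 25 were lower and *homer3b* was higher (median -0.53), with *nrxn3a* at -0.71 and *gria3a* at -0.66. Of 31 granule cell genes, 20 were lower and none was higher (median -0.38; none higher at an unadjusted p under 0.05 in edgeR, or in DESeq2 or limma-voom). The shares lower were 89.3% of the parallel fibre list and 64.5% of the granule cell list. Of all genes tested, 18.5% were lower and 22.3% were higher. *fat2*, a cadherin of granule cells, was at 530.1 ± 4.97 CPM in *psap* KO and 999 ± 104 CPM in WT brains (SD, n = 4 each; log2FC -0.91), and *gabra6b* (-0.88), *pax6b* (-0.45) and *cntn2* (-0.39) were lower too. The summed level of the granule cell list was 3122 to 3199 CPM in *psap* KO and 4251 to 4707 CPM in WT libraries.

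Lists not particular to the cerebellum were counted too. Of 18 GABAergic genes, 13 were lower (median -0.48), *calb2b* by -1.23 and *gad1b* by -0.77 on the log2 scale, and of 29 pan-neuronal genes, 21 were lower and *uchl1* (0.43) and *gap43* (0.68) were higher (median -0.41). The shares lower were 72.2% and 72.4%, against 18.5% lower and 22.3% higher among all genes tested. The neurofilament genes *nefla* (-1.95), *nefmb* (-1.90) and *nefma* (-0.64) and the neuronal splicing factor *rbfox3a* (-0.86) were the pan-neuronal genes with the smallest p. The summed pan-neuronal level was 7002 to 7406 CPM in *psap* KO and 9563 to 10040 CPM in WT libraries. Of 23 telencephalic genes, 5 were lower (*foxg1b* at -1.56, *penka* at -0.50, *bcl11ab* at -0.57, *emx2* at -0.37 and *bcl11aa* at -0.30; median -0.11), and this 21.7% is near the 18.5% of all genes tested. None was higher, against 22.3% of all genes tested, although 1 was higher without a filter on low counts. The summed telencephalic level was still lower, at 416 to 480 CPM in *psap* KO and 491 to 542 CPM in WT libraries. Whether the lists differ from each other was not tested, and 5 of the 18 GABAergic, 8 of the 28 parallel fibre and 2 of the granule cell genes also stand on the list of other Purkinje cell genes. The list of relatives shares 10 listed genes with it, so the rises of *itpr1a*, *foxp1a* and *foxp3a* are counted in both.

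Glial and myeloid genes moved with the genotype as well. Of 30 genes of microglia and macrophages, 28 rose and none fell, also at an unadjusted p under 0.05 in edgeR and in DESeq2 and limma-voom (median 2.55), with a summed level of 2980 to 3554 CPM in *psap* KO and 464 to 590 CPM in WT libraries. *grna* (3.90), *lgals3bpb* (3.53), *apoeb* (3.40) and *itgb2* (2.48) led that list by p. Of 26 genes of radial glia and Bergmann glia, the glia that surround Purkinje cells, 16 were higher and 3 were lower (median 0.40), with *gfap* at 2.03, *aqp1a.1* at 1.28, *sox2* at 0.42, *ndrg2* at -0.55, *kcnj10a* at -0.58 and *her4.1* at -0.42. Of 17 oligodendrocyte genes, 7 were higher and 2 were lower (median 0.26), with *mbpa* at -2.29, *myrf* at -0.27, *nkx2.2a* at 0.69, *cnp* at 0.40 and *sox10* at 0.49. The shares higher and lower were 61.5% and 11.5% for the radial and Bergmann glia list and 41.2% and 11.8% for the oligodendrocyte list. Of all genes tested, 22.3% were higher and 18.5% were lower. Of 20 skeletal muscle entries, 3 were lower (*tpma* at -0.78, *ryr1a* at -0.84 and *ttn.1* at -4.12) and *mylpfa* did not pass (-3.30). This 15% is near the 18.5% of all genes tested that were lower. The muscle list had a median of -2.155, and WT replicate 1 was far above the other WT libraries for *ttn.1* and *mylpfa*. The part of these shifts in the levels of the Purkinje cell genes was not tested.

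**Figure D5:**
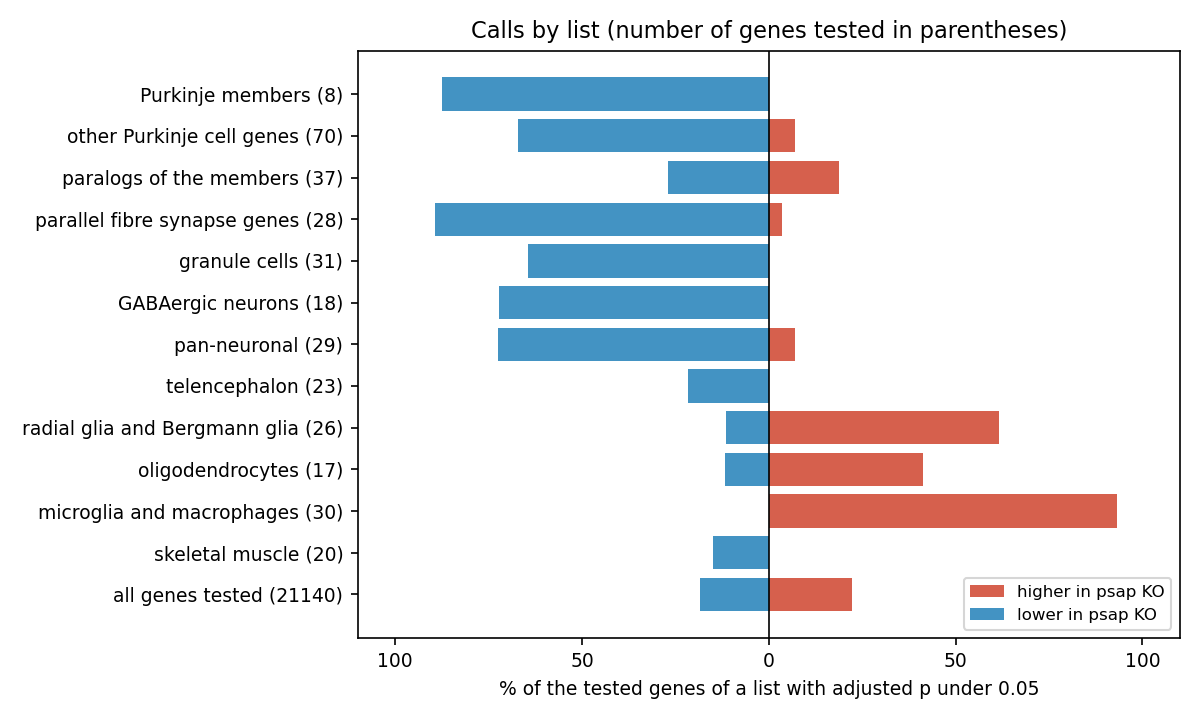
Share of the tested genes of each list (rows, with their number) that were higher (red, right) or lower (blue, left) in the *psap* KO libraries with an adjusted p below 0.05 (x axis, percent). Of the 8 Purkinje cell genes, 87.5% were lower, against 18.5% of all genes tested. Other neuronal lists had 89.3% (parallel fibre synapse), 72.4% (pan-neuronal), 72.2% (GABAergic), 64.5% (granule cell) and 21.7% (telencephalic) lower.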

How the data were processed

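The values come from whole-brain RNA libraries (ribosomal RNA depleted, strand kept). The authors trimmed reads with cutadapt 1.16, aligned them with STAR 2.6.1b to the Zv10 genome with Ensembl features, and deposited raw counts per gene from featureCounts 1.6.3. The deposited annotation names no genome build. The authors' DESeq2 comparison (fold changes, p-values) was not used. The genotypes were compared with edgeR 4.0.16 (R 4.3.3), using TMM scaling, filterByExpr by genotype (1731 of 22871 genes left out), a robust quasi-likelihood fit and Benjamini-Hochberg adjustment over 21140 genes. Levels are TMM-scaled CPM, the log2 of which had a prior count of 2 added. Means of log2 CPM were also compared by exact two-sided permutation tests.

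The 8 genes and the gene lists were chosen with earlier results of these data known. Genes named from a list were the 4 with the smallest p (8 for the other Purkinje cell genes), the tested aldolase, *itpr*, *ror*, *lhx1*/*lhx5* and *foxp* relatives, *pvalb6*, *psap*, and the 3 genes most like *pvalb7*, *ca8* and *aldoca*. Some genes that this rule gives are not reported here. The other genes named were chosen after their values were seen. Results were recomputed with RLE and upper-quartile scaling, without a filter, with a mean count of at least 50, with DESeq2 1.42.0, with limma-voom (limma 3.58.1), with a replicate term and without each library. The code was tested on simulated data.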

Additional observations from a re-analysis of the deposited data

Results flagged for a closer look

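Of 156 groups of 4 libraries of 1 gene each, 12 had 1 library far from the other 3. Chance gives this in about 1 in 20 groups. Among the 8 Purkinje cell genes there was 1 such library: *lhx1a* was at 63.1 CPM in WT replicate 3, below the 66.3 to 66.6 CPM of the rest of the WT libraries but above every *psap* KO library. *gad2* was at 479 CPM in *psap* KO replicate 1 (others 531 to 541), and *rorb* at 13.6 CPM in WT replicate 1 (others 15.7 to 16.1). *aldoab* was at 5.89 CPM in WT replicate 1 (others 2.51 to 2.81). *tanc1a* was at 82.3 CPM in *psap* KO replicate 1 (others 93.1 to 95.2).

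Of the other lists, *itgb2* was at 106 CPM in *psap* KO replicate 4 (others 82.3 to 83.5), *foxg1b* at 5.94 CPM in WT replicate 2 (others 8.84 to 8.96), *gfap* at 85.1 CPM in WT replicate 2 (others 109 to 112) and *ndrg2* at 556 CPM in WT replicate 4 (others 528 to 530.2). *ttn.1* was at 10.5 CPM in *psap* KO replicate 1 (others 5.20 to 5.94) and at 302 CPM in WT replicate 1 (others 37.1 to 67.5), and *mylpfa* was at 21.98 CPM in WT replicate 1 (others 0.484 to 1.35).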

How the results depend on the processing

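*pvalb7*, *itpr1b*, *cbln12* and *lhx1a* kept their call in all 15 alternatives, with log2 fold changes of -0.76 to -0.64, -0.65 to -0.57, -0.98 to -0.71 and -0.27 to -0.22. The number of the 8 genes that were lower was 8 with DESeq2, 6 with upper-quartile scaling and with a mean count of at least 50, and 4 to 7 when each library was left out (4 without WT replicate 2). DESeq2 called *aldoca* (-0.318), and *foxp4* lost its call with upper-quartile scaling (-0.247) and with a mean count of at least 50 (-0.255). With each library left out, the log2 fold changes ran from -0.458 to -0.269 for *ca8*, -0.394 to -0.203 for *aldoca*, -0.265 to -0.174 for *rorab* and -0.334 to -0.175 for *foxp4*. The causes were not tested.

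Genes near 0 changed sign: *rorca* with RLE scaling and DESeq2 (-0.006 in both), *aldocb* with upper-quartile scaling (0.021) and a mean count of at least 50 (0.012), *rorc* with limma-voom (-0.127) and the replicate term (-0.016), and *cdc42* with RLE scaling and DESeq2 (-0.015 in both). With each library left out they ran from -0.057 to 0.101 (*rorca*), -0.062 to 0.034 (*aldocb*), -0.275 to 0.285 (*rorc*), -0.014 to 0.041 (*cdc42*), -0.024 to 0.192 (*foxp1b*), -0.136 to 0.017 (*itpr3*), -0.084 to 0.425 (*aldoab*), -0.18 to 0.007 (*nr2c1*), -0.102 to 0.335 (*FP325123.1*), -0.072 to 0.159 (*rab3da*) and -0.052 to 0.297 (*si:ch211-113a14.12*). Over the 70 other genes given by the naming rule and 15 alternatives, 1000 of 1048 values kept their direction and side of the threshold. The lower oligodendrocyte genes numbered 1 to 4.

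Replicate numbers shared between *psap* KO and WT were not read as a pairing: over all tested genes their deviations correlated at 0.057 to 0.167, and 2 of 4 *psap* KO and 3 of 4 WT libraries correlated best with their own number. Over the genes above an average log2 CPM of 1, the values were 0.125 to 0.248 and 4 of 4 in both. The choice of gene set was settled with both in view. The paper states that WT and KO samples were processed in alternation, so a pairing by replicate number remains possible. With the replicate number as a block, the same 7 of the 8 genes were lower, with *pvalb7* at -0.72, *cbln12* at -0.86 and *foxp4* at -0.29, and *aldoca* again missed the threshold (-0.30, adjusted p = 0.0571 by edgeR). Of the other genes given by the naming rule, the block gave *foxp2* a call (-0.288, adjusted p = 0.0257) and took that of *aldh9a1b* (0.35, adjusted p = 0.057). The block called 4908 genes higher and 4429 lower.

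Whole-brain pools of 3 fish do not give the share of Purkinje cells. The p-values weigh the difference between genotypes against the spread between pools, not between single fish. Upper-quartile scaling moved the share of higher among all calls to 59.4%, from 54.7%, and the median log2 fold change of all genes ran from -0.002 to 0.053 over the scalings. Genes of few counts, such as *rorc* and *ptf1a*, limit what could be detected.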
